A study of Mus musculus with 2 samples.

Results

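The 10 genes described here are grouped as AP-1 and Egr immediate early factors, although Jund is known for steady expression in resting cells. They were measured in mouse keratinocytes with and without deletion of Pp6, the gene for the catalytic subunit of protein phosphatase 6. The genes were picked by name from the table of 47719 genes: the Fos family (Fos, Fosb, Fosl1 and Fosl2), the Jun family (Jun, Junb and Jund), the related factor Atf3, the zinc finger factor Egr1 and the early response gene Ier3. All 10 had a row under their Ensembl identifier, and all 10 reached 1 CPM (reads scaled to library size) in at least 1 library. Egr2, Egr3 and Egr4, the remaining members of the Egr family, were added for comparison.

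RNA was sequenced from 1 library of the genotype K5.Pp6fl/fl, titled cKO, and 1 library of the genotype Pp6fl/fl. Both came from tail keratinocytes of C57BL/6J mice aged 8 weeks, kept for 3 days in culture, and both carry the floxed Pp6 allele. In K5.Pp6fl/fl mice the keratin 5 promoter, a promoter of basal keratinocytes, drives the recombinase that removes the allele, and Pp6fl/fl mice, which lack this driver, served as control. The labels do not say how many mice went into a culture. Since each genotype has 1 library, differences have no replicate check, no p-value was computed, and the intervals (95%) cover counting error alone.

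Immediate early genes are switched on within minutes of a growth factor, cytokine or stress signal, without new protein synthesis, and their mRNAs are short-lived. Fos and Jun proteins pair through a leucine zipper and bind DNA as AP-1, a set of dimers whose make-up sets which genes are activated. In the epidermis AP-1 takes part in both proliferation and terminal differentiation, and Egr1 is induced by MAP kinase signalling through serum response elements.

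Depth was 17361265 estimated reads for K5.Pp6fl/fl and 19374776 for Pp6fl/fl. The targeted gene, with the symbol Ppp6c, had 707 reads (656 to 761, exact Poisson) with K5.Pp6fl/fl and 1074 (1011 to 1140) with Pp6fl/fl, a fold of 0.733 (0.666 to 0.807), and 16.8 and 30.6 FPKM. The table gives 1 value per gene and none per exon, so it has no measure of how complete the deletion was. Folds are CPM in K5.Pp6fl/fl divided by CPM in Pp6fl/fl, and log2 ratios had 0.5 CPM added to each side. The 2-fold rule asked for a log2 ratio of 1 or more in size, 1 CPM or more in the higher library and an interval without 1. Of 12325 genes at 1 CPM or more, 0.811% were past the rule as higher and 0.195% as lower. Krt14, a basal keratin, measured 28562 CPM (K5.Pp6fl/fl) and 30699 CPM (Pp6fl/fl), and its partner Krt5 measured 17102 and 17800 CPM. Not all keratinocyte markers were that level. All 10 listed reached 1 CPM, and their log2 ratios ran from -0.37 to 0.54. Intervals lay above 1 for 2 and below 1 for 6, beside 16.6% and 17.4% of all genes at 1 CPM or more. Of 8 fibroblast markers 1 reached 1 CPM in a library (Vim), and of 5 endothelial markers none did. Of 10 immune cell markers 1 did: Cd68, a lysosomal protein of macrophages, had 434 reads in K5.Pp6fl/fl and 575 in Pp6fl/fl, or 24.97 and 29.71 CPM, a fold of 0.840 (0.740 to 0.953). A further 7 immune markers had 0 reads in both libraries, the defining markers Ptprc, Cd207 and Cd3e among them. Melanocyte markers were low but higher with K5.Pp6fl/fl, with a sum over 8 genes of 22.1 CPM there and 14.8 CPM in the Pp6fl/fl library. Of these, Tyrp1, Pmel and Mitf were at 4.95, 4.83 and 6.33 CPM with K5.Pp6fl/fl and at 2.48, 2.17 and 7.03 CPM with Pp6fl/fl. The part of Cd68 and of the melanocyte markers in the results below was not tested, and in bulk RNA a change in the number of cells of a type and a change in RNA per cell cannot be told apart.

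Counted together, the 10 genes went both ways and only Egr1 passed the 2-fold rule. For 6 of 10 the interval lay above 1 (Egr1, Ier3, Fos, Junb, Atf3 and Fosl2), against 16.6% of all genes at 1 CPM or more, and for 2 it lay below 1 (Jun and Jund), against 17.4%. Fosb and Fosl1 had intervals that included 1. Abundant genes have narrow intervals: among the 4538 genes at 50 CPM or more in a library, 21.8% had an interval above 1 and 26.2% below. The 7 members in that band were split 5 and 2. Of the 5, Egr1 and Atf3 reached 50 CPM in K5.Pp6fl/fl only (55.2 and 52.5 CPM, against 24.5 and 47.6 CPM in Pp6fl/fl). Their higher level there let them into the band, so the split is no separate check on direction. The median log2 ratio of the 10 was 0.11, and that of all 12325 genes was -0.01. Of the 10, 1 was past the 2-fold rule as higher and 0 as lower, beside 0.811% and 0.195% of all genes. With the threshold of the rule set to 1.5-fold, 3 members passed as higher (Egr1, Ier3 and Fos), as did 3.47% of all genes. As lower, 0 members passed, and 1.26% of all genes did. In the authors' deposited table, 4 members had an FDR under 0.05 with a positive log2 fold change (Ier3, Egr1, Junb and Fos) and 1 with a negative one (Jun), where 8.86% and 5.50% of the genes at 1 CPM or more did. Those FDR values rest on 1 library per genotype.

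**Figure D1:**
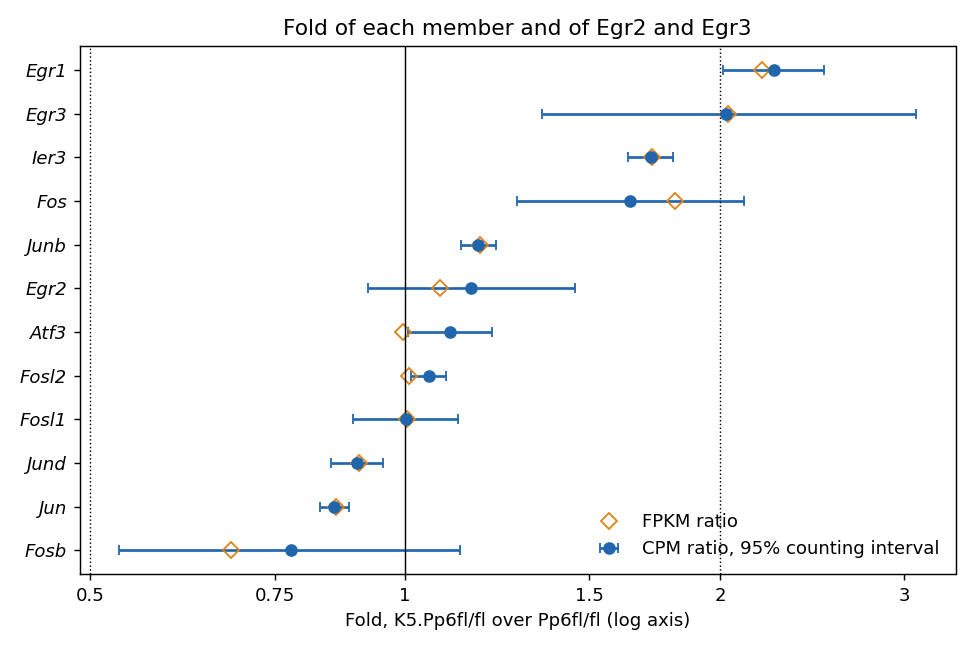
Fold of each of the 10 members and of Egr2 and Egr3, K5.Pp6fl/fl over Pp6fl/fl, on a log axis. Circles with bars are CPM ratios with the 95% counting interval, open diamonds are ratios of the authors' FPKM, and dotted lines mark 0.5 and 2. Egr1 (2.25) is the highest and Fosb (0.778) the lowest, and the diamond of Atf3 (0.996) lies on the other side of 1 from its circle (1.10).

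Egr1, a zinc finger factor that binds GC-rich sites in growth and wound response genes, had the largest fold of the 10. It had 960 reads (900 to 1023) in the K5.Pp6fl/fl library and 475 (433 to 520) in the Pp6fl/fl library, which is 55.2 and 24.5 CPM. The counting intervals of the libraries do not overlap, and the fold was 2.25 (2.01 to 2.52). By log2 ratio it ranked 65 from the top of the 12325 genes. By FPKM the levels were 17.6 in K5.Pp6fl/fl and 8.03 in Pp6fl/fl, a fold of 2.19. Egr1 alone among the 10 is marked significant in the authors' deposited table, at 1.12 on the log2 scale and an FDR of 8.85e-35.

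The other Egr genes were less abundant and only Egr3 had a fold near that of Egr1. Egr3, a relative of Egr1 with the same zinc finger domain, had 71 and 39 reads, 4.08 CPM in K5.Pp6fl/fl and 2.02 CPM in Pp6fl/fl, a fold of 2.03 (1.35 to 3.08). Its log2 ratio of 0.87 fell short of the rule because 0.5 CPM was added to these low values. Egr2, best known from myelinating Schwann cells, had 160 and 154 reads, 9.20 CPM in K5.Pp6fl/fl and 7.96 CPM in Pp6fl/fl, and its fold of 1.16 had an interval that included 1 (0.921 to 1.45). Egr4 had 0 reads in K5.Pp6fl/fl and 1 in Pp6fl/fl, both under the limit of 3 counts that a count of 0 allows. Reads of the 4 genes summed to 1191 and 669, a fold of 1.98 (1.80 to 2.18). Relative to each other, Egr1 was higher than Egr2 by a ratio of folds of 1.94 (1.51 to 2.51), whereas Egr1 and Egr3 could not be told apart by counting error (1.11, 0.720 to 1.69). Nab1 and Nab2, the corepressors that bind Egr proteins, were at folds of 1.13 (1.06 to 1.20) and 1.26 (0.995 to 1.61).

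Ier3, also called IEX-1, encodes a short-lived regulator of cell survival that is induced by growth factors, stress and NF-kB. It was the most abundant of the 10 by FPKM in the K5.Pp6fl/fl library, at 283 FPKM, against 164 FPKM in the Pp6fl/fl library, where Junb stood above it. Reads were 4055 (3931 to 4182) and 2630 (2530 to 2732), or 233 CPM in K5.Pp6fl/fl and 136 CPM in Pp6fl/fl, with no overlap of the counting intervals. The fold was 1.72 (1.63 to 1.80), short of 2, and the log2 ratio ranked 223 from the top. Its FDR in the authors' deposited table was the lowest of the 10, 4.26e-38, for a log2 change of 0.78, and it was not marked significant. Because Ier3, Fos and Jun differ in direction, the 250 bases before their start sites are shown here and below, 5′ to 3′, from the RefSeq promoter table of GRCm38.p6, with matches to the searched motifs in capitals. None of the letters searched was found in the Ier3 window.
Ier3 promoter (chr17:35821463-35821712, plus strand): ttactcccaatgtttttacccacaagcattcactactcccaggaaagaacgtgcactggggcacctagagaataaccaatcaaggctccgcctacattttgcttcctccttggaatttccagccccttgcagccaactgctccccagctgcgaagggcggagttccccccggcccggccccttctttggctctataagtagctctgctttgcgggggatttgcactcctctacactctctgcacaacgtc

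In the Fos family the founding member differed most. Fos, the partner that is induced fastest and most transiently after stimulation, had 162 reads (138 to 189) in the K5.Pp6fl/fl library and 110 (90.4 to 133) in the Pp6fl/fl library, or 9.32 and 5.68 CPM. The counting intervals do not overlap, and the fold was 1.64 (1.28 to 2.11), rank 334 from the top by log2 ratio. By FPKM it was 5.94 in K5.Pp6fl/fl and 3.28 in Pp6fl/fl, 1.81-fold apart. An FDR of 0.00185 for a log2 change of 0.84 stands in the authors' deposited table. The Fos promoter is shown for its cyclic AMP response element half-site and TATA box, which lie 66 to 61 and 33 to 28 bases before the start site.
Fos promoter (chr12:85473640-85473889, plus strand): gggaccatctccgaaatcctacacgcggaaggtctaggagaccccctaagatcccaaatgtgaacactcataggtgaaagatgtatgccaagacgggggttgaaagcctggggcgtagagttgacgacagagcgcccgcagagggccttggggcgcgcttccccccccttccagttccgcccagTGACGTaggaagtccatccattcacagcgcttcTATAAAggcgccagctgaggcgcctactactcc

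Fosb, which like Fos carries a transactivation domain, went the other way within its counting error. It had 51 and 73 reads, 2.93 CPM in K5.Pp6fl/fl and 3.77 CPM in Pp6fl/fl, and a fold of 0.778 with an interval that included 1 (0.533 to 1.13). This was the lowest log2 ratio of the 10, at -0.32. Fosl1, or Fra-1, lacks that domain and is the Fos protein of migrating and wounded epithelium. Its 564 and 627 reads came to 32.4 CPM in each library, and the interval of the fold ran from 0.892 to 1.12. Exons of Ccdc85b on the opposite strand overlap 1163 of the 2033 annotated exon bases of Fosl1. Since the kit does not mark strand, reads within the overlap cannot be assigned to either gene by strand. Ccdc85b had 73 reads in K5.Pp6fl/fl and 94 in Pp6fl/fl. The sum of both genes had a fold of 0.984 (0.883 to 1.10).

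Fosl2, or Fra-2, which in epidermis is known for regulating differentiation genes, was by far the most abundant Fos transcript. It was at 295 CPM in K5.Pp6fl/fl and 280.5 CPM in Pp6fl/fl, from 5134 and 5428 reads, and the fold of 1.05 (1.01 to 1.09) was close to 1. By FPKM the levels were 50.7 and 50.3, a fold of 1.01, so the small difference in reads is not seen per length. Fos exceeded every other family member in fold, with ratios of folds of 2.10 (1.34 to 3.33) over Fosb, 1.64 (1.24 to 2.16) over Fosl1 and 1.56 (1.21 to 2.01) over Fosl2. Among Fosb, Fosl1 and Fosl2, none of the 3 pairwise ratios had an interval away from 1. The whole family summed to 340.1 CPM in K5.Pp6fl/fl and 322 CPM in Pp6fl/fl, a fold of 1.05 (1.02 to 1.09).

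The Jun family split, with Junb higher and both Jun and Jund lower in the K5.Pp6fl/fl library. Jun, the strongest activator of the family and the best known partner of Fos, had 6540 and 8508 reads, 376 CPM in K5.Pp6fl/fl and 439.7 CPM in Pp6fl/fl, a fold of 0.856 (0.829 to 0.884). Junb, which can restrain Jun and limits keratinocyte cytokine output in mice, had 5570 and 5279 reads, 320.4 CPM in K5.Pp6fl/fl and 273 CPM in Pp6fl/fl, a fold of 1.17 (1.13 to 1.22). Jund, the family member that is expressed most steadily in resting cells, had 2149 and 2658 reads, 124 CPM in K5.Pp6fl/fl and 137 CPM in Pp6fl/fl, a fold of 0.900 (0.850 to 0.953). For all 3 the counting intervals of the libraries do not overlap after scaling to depth, but the folds lie close to 1, and the spread between cultures of 1 genotype is not known. Log2 changes in the authors' deposited table were 0.24 for Junb (FDR 0.000196), -0.22 for Jun (FDR 0.000761) and -0.15 for Jund (FDR 0.122).

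Set against each other, Jun over Junb had a ratio of folds of 0.729 (0.693 to 0.766), and Junb over Jund one of 1.31 (1.22 to 1.40). Jun and Jund had folds that counting error does not separate, with a ratio of 0.951 (0.890 to 1.02). The family sum was 820.3 CPM in K5.Pp6fl/fl and 849.8 CPM in Pp6fl/fl, a fold of 0.965 (0.944 to 0.987), while by FPKM it was 388 and 383, a fold of 1.01. Direction for the whole family therefore depends on whether reads are divided by gene length. Genes on the opposite strand share exon bases with each of the 3. Junos shares 232 bases with Jun, Prdx2 shares 173 with Junb and Gm11175 shares 877 with Jund, and the folds of the summed pairs were 0.856, 1.13 and 0.908, each on the same side of 1 as the member alone. Gm11175 held 747 reads in K5.Pp6fl/fl and 892 in Pp6fl/fl, which can hold reads of Jund. Jund was also the only one of the 10 whose recovered reads were not whole in both libraries. The Jun promoter carries the sequence through which Jun and Atf2 dimers are known in human cells to regulate the Jun gene itself, here in capitals 45 to 38 bases before the start site.
Jun promoter (chr4:95052223-95052472, minus strand): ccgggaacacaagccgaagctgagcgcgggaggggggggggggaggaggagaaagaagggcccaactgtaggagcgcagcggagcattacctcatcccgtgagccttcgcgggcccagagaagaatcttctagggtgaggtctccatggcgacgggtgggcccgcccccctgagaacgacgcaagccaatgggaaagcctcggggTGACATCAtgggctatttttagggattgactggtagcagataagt

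Atf3, a stress-induced repressor that pairs with Jun proteins, did not keep its direction between measures. Its 913 and 921 reads came to 52.5 CPM in K5.Pp6fl/fl and 47.6 CPM in Pp6fl/fl, a fold of 1.10 (1.01 to 1.21). By FPKM it was at 40.1 in K5.Pp6fl/fl and 40.3 in Pp6fl/fl, a fold of 0.996. The authors' deposited table has it at -0.01 on the log2 scale, with an FDR of 0.247. FPKM can divide by a different effective length in each library where isoform shares differ, and 3 transcripts are annotated for Atf3; whether this bears on its values was not tested.

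Levels of different genes can be compared per length, by FPKM. In the K5.Pp6fl/fl library the order was Ier3 (283 FPKM), Junb (209), Jun (131), Fosl2 (50.7), Jund (48.1), Atf3 (40.1), Fosl1 (23.2), Egr1 (17.6), Fos (5.94) and Fosb (0.955). The Pp6fl/fl library had Junb first (177 FPKM), then Ier3 (164), Jun (152), Jund (53.3), Fosl2 (50.3), Atf3 (40.3), Fosl1 (23.1), Egr1 (8.03), Fos (3.28) and Fosb (1.40). Neighbours in these orders were apart by more than their counting intervals, except Fosl2 and Jund, whose intervals overlapped in both libraries. Ier3 and Junb changed places between the libraries. Fos and Fosb were the lowest of the 10 in both cultures, and Junb and Jun the highest of the AP-1 subunits.

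**Figure D2:**
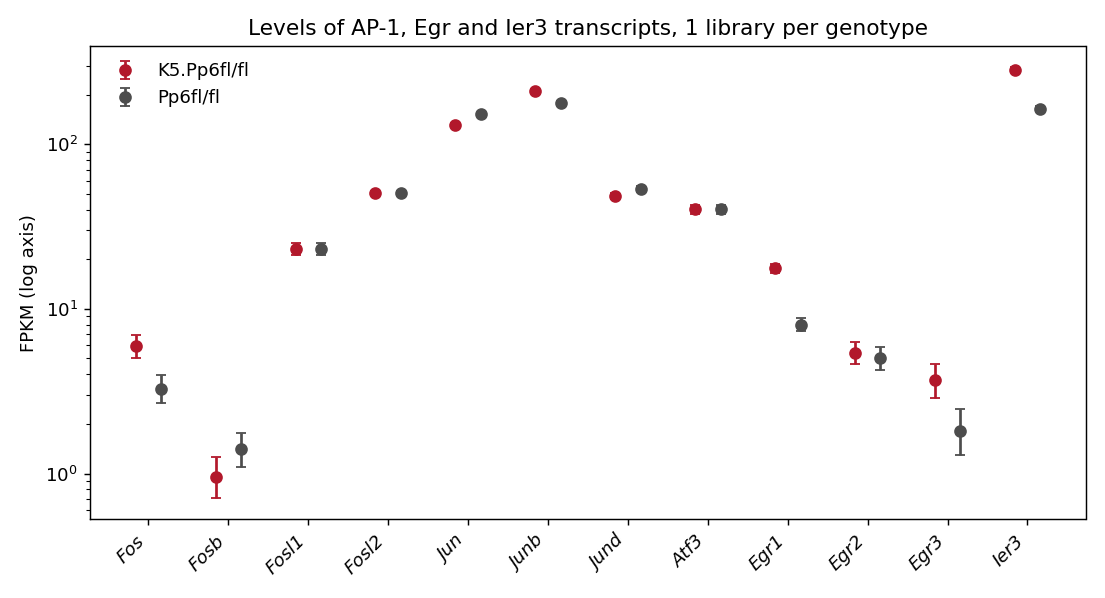
FPKM of each member and of Egr2 and Egr3 on a log axis, K5.Pp6fl/fl in red to the left of Pp6fl/fl in grey, with bars for the 95% Poisson interval of the reads. Egr1 (17.6 and 8.03), Fos (5.94 and 3.28) and Ier3 (283 and 164) are apart between the libraries, whereas Fosl1 and Fosl2 lie level.

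The make-up of each family, as shares of its summed FPKM, moved little for Fos and more for Jun and Egr. Fosl2 held 62.8% of the Fos family in K5.Pp6fl/fl and 64.4% in Pp6fl/fl, and Fosl1 28.7% and 29.6%. The share of Fos itself was 7.35% in K5.Pp6fl/fl and 4.21% in Pp6fl/fl, and that of Fosb 1.18% and 1.80%. In the Jun family Junb held 53.9% in K5.Pp6fl/fl and 46.3% in Pp6fl/fl, a difference of 7.56 percentage points, and Jun held 33.7% and 39.7%. Egr1 made up 65.9% of the Egr family in K5.Pp6fl/fl and 54.0% in Pp6fl/fl, while Egr2 made up 20.3% and 33.6%. Divided by nothing but depth, the shares differ: by CPM, Fosl2 held 86.9% of the Fos family in K5.Pp6fl/fl and 87.0% in Pp6fl/fl, and Fos 2.74% and 1.76%. By that measure Jun, not Junb, was first in its family, with 45.9% in K5.Pp6fl/fl and 51.7% in Pp6fl/fl, against 39.1% and 32.1% for Junb. The share of Junb was higher in K5.Pp6fl/fl by both measures. Across the Fos and Jun families together the total was 1160.4 CPM in K5.Pp6fl/fl and 1172 CPM in Pp6fl/fl, a fold of 0.990 with an interval that included 1 (0.971 to 1.01). Of the 12 pairs within families, with Egr4 left out, 7 had a ratio of folds with an interval away from 1. The pairs share members, and the share among pairs of other genes was not computed, so the count describes these pairs only.

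**Figure D3:**
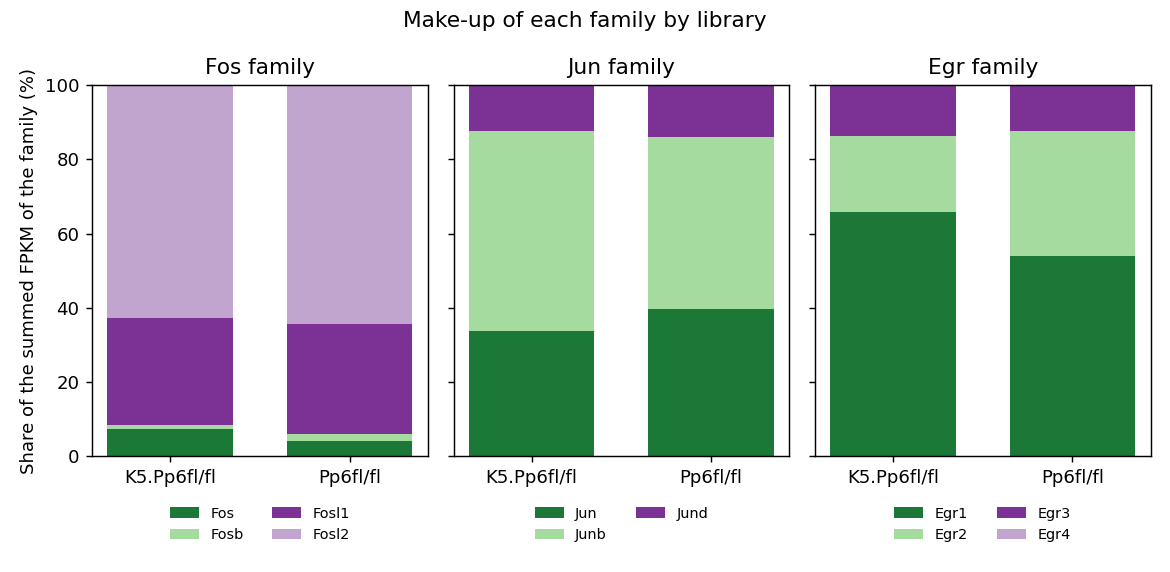
Share of the summed FPKM of the Fos, Jun and Egr families held by each member, in percent, with the K5.Pp6fl/fl bar to the left of the Pp6fl/fl bar in each panel. The share of Junb is 53.9% in K5.Pp6fl/fl and 46.3% in Pp6fl/fl, and that of Egr1 is 65.9% and 54.0%.

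All 10 members carry an AU-rich pentamer, ATTTA in DNA letters, in the longest annotated 3′ UTR of their coding transcripts. Of the 10, 7 carry at least 2 pentamers, and the share of all genes that do so was not computed. Such pentamers are bound by decay factors of the Zfp36 family and are known to shorten mRNA life. Of 11319 genes at 1 CPM or more with an annotated 3′ UTR, 70.7% hold the pentamer, with a median of 1.34 per kilobase. Density was 8.16 per kilobase in Ier3, 4.91 in Fos, 4.12 in Junb, 3.24 in Jun, 2.53 in Atf3, 1.88 in Jund, 1.72 in Fosl2, 1.65 in Egr1 and 1.57 in Fosl1. Fosb, at 0.434, was the only member under the median. The longer form TTATTTATT occurred in Fos and Fosl2, 2 of the 10, and in 8.51% of the 11319 genes. The 963 genes with the longer form had a median log2 ratio of 0.00, and the 10356 without it -0.01. The densest stretch of 30 bases is shown for 4 members whose folds ran in both directions, from the GENCODE transcripts of GRCm38, with the pentamers in capitals.
Ier3 3′ UTR site (chr17:35822484-35822513, plus strand): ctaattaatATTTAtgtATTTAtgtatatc
Fos 3′ UTR site (chr12:85477100-85477129, plus strand): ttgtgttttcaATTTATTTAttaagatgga
Junb 3′ UTR site (chr8:84977127-84977156, minus strand): aatatatttgtgtATTTAacagggagggga
Jun 3′ UTR site (chr4:95049207-95049236, minus strand): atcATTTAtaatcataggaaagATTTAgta
The Ier3, Fos and Jun stretches each hold 2 pentamers, and the Junb stretch holds 1. Whether the pentamers bear on the folds was not tested.

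Promoter windows of 250 bases were at hand for 8 of the 10 members, all but Egr1 and Fosl1. Motifs were searched on both strands, and only full matches within the 250 bases were counted. The AP-1 site TGANTCA, present in 6.75% of the 32851 promoters of the table, and an NF-kB motif (1.41%) had no match in the 8 windows, and neither had the CArG box of serum response factor (1.47%). The form TGACNTCA (7.49%) matched in Jun only. Its half-site TGACGT (6.47%), which overlaps that form where the free base is G and was added after the sequences had been read, matched in Fos and Atf3. The Egr site GCGNGGGCG (4.70%) matched in Fosb and Fosl2, and TATAAA (12.4%) in Fos. Fosb and Fosl2, with the Egr letters in their windows, were at folds of 0.778 (0.533 to 1.13) and 1.05 (1.01 to 1.09). Whether Egr proteins act on them was not tested. A match is a match of letters and no measured binding. Bases further upstream were not searched, near matches were not counted, and Egr1 had no window. Control of the members by serum response factor, NF-kB or AP-1 was therefore not tested by the lack of matches. Some windows of Egr2, which is not among the 10, did hold a CArG box.

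Within the distribution of all 12325 genes, Egr1 stood at percentile 99.5 of the log2 ratio, Ier3 at 98.2 and Fos at 97.3. Junb was at percentile 85.5, Atf3 at 77.8, Fosl2 at 68.4 and Fosl1 at 53.6. On the lower side, Jund was at 21.0, Jun at 12.5 and Fosb at 6.63. The middle 95% of all genes ran from -0.47 to 0.69 in log2 ratio, and of the members Egr1 (1.15) and Ier3 (0.78) lay outside it. Fos, at 0.67, was just inside.

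**Figure D4:**
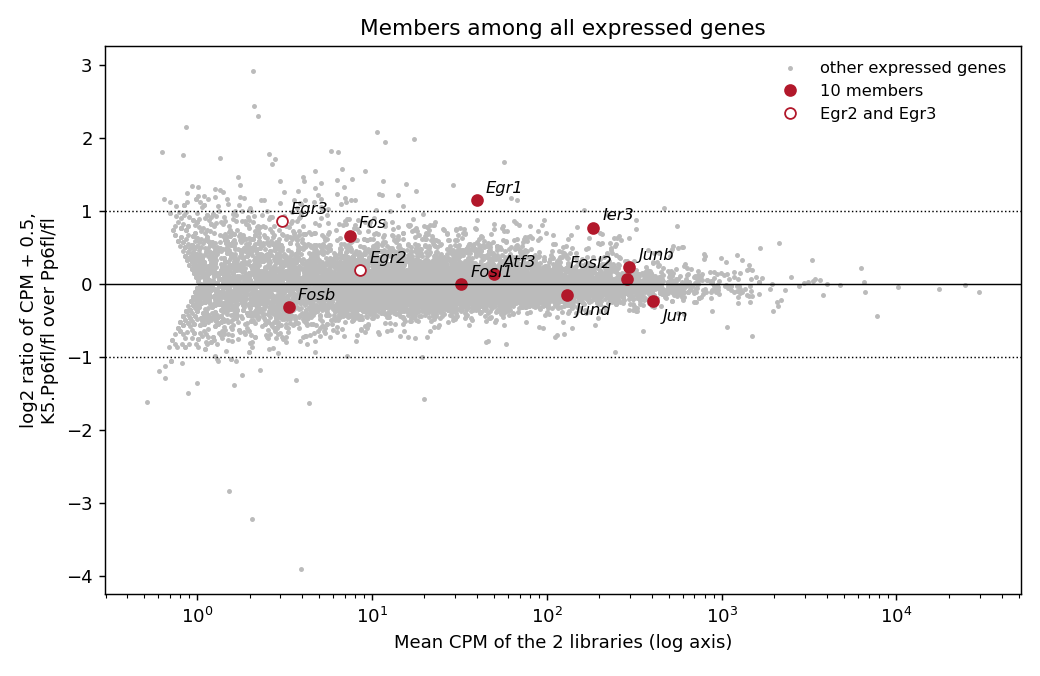
Log2 of K5.Pp6fl/fl over Pp6fl/fl, each as CPM + 0.5, against mean CPM on a log axis for all 12325 genes at 1 CPM or more (grey), with the 10 members (filled red) and Egr2 and Egr3 (open red). Dotted lines mark 2-fold; Egr1, at 1.15, is the member above the upper line, and no member is below the lower one.

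By closeness in level over both libraries (distance in log2 CPM + 0.5 over the 2 libraries), the genes most like Egr1 were P2rx2, Nectin4 and 2310050C09Rik, at distances of 0.21, 0.27 and 0.29. P2rx2 was at 51.8 CPM in K5.Pp6fl/fl and 28.0 CPM in Pp6fl/fl. Nearest to Fosb, the lowest member, were Gabbr1, Epdr1 and Zfp941, at distances of 0.02, 0.04 and 0.04. With 2 libraries such closeness says only that the levels are alike.

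Other immediate early genes did not follow Egr1, Ier3 and Fos as a group. Of 35 further genes 34 reached 1 CPM, of which 19 had a log2 ratio above 0 and 15 below. For 10 the interval lay above 1 and for 8 below, beside 16.6% and 17.4% of all genes at 1 CPM or more. At 50 CPM or more those shares were 21.8% and 26.2%. None of the 34 passed the 2-fold rule, and the median was 0.01. The most abundant were Klf6, a Krüppel-like factor, at a fold of 0.897 (0.873 to 0.922), and the polo-like kinase Plk2 at 1.10 (1.06 to 1.14). Several more are named after their values were seen. The highest ratio was that of Arc, known as an early gene of neurons that serum response factor drives, with 170 and 97 reads, 9.78 CPM in K5.Pp6fl/fl and 5.01 CPM in Pp6fl/fl, a fold of 1.95 (1.51 to 2.53). Zfp36, itself a decay factor for AU-rich mRNAs, stood at 1.28 (1.20 to 1.36), and Plk3 at 1.29 (1.22 to 1.37). On the lower side were Ccn2 and Ccn1, matrix-signalling genes also known as targets of YAP, at folds of 0.723 (0.657 to 0.797) and 0.746 (0.697 to 0.797), and Myc at 0.828 (0.795 to 0.863). Within the rule again, Srf, the serum response factor that drives Fos and Egr1, was at 0.815 (0.766 to 0.867).

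Regulators of AP-1 and Egr1 went both ways, where 34.0% of all genes had an interval away from 1 in either direction. The 6 genes of the serum response factor and ternary complex list had a median of -0.06, with 0 intervals above 1 and 2 below, and Mrtfa at a fold of 1.01 (0.950 to 1.08). Of 16 further bZIP genes at 1 CPM or more, 8 were above 0 and 8 below, with 3 intervals on each side of 1. Their most abundant members were Atf4 at 0.998 (0.973 to 1.02) and Nfe2l1 at 1.24 (1.20 to 1.28). Among 17 kinases and phosphatases that act on AP-1, 5 intervals lay above 1 and 2 below, with a median of 0.03; Rps6ka1, a kinase downstream of MAP kinases, was at 1.01 (0.953 to 1.07). The 8 genes for AU-rich element binding proteins had a median of 0.02, with 2 intervals above 1 and 1 below, and Zfp36l2 at 0.878 (0.858 to 0.897). None of these genes passed the 2-fold rule. Phosphorylation, through which PP6 and MAP kinases act on proteins, is not measured by RNA.

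The AP-1 target genes listed here mostly had higher levels with K5.Pp6fl/fl. This list was chosen with earlier results of these data known, so its counts describe the listed genes and test nothing. Of 22 listed genes 19 reached 1 CPM, of which 16 had a log2 ratio above 0 and 3 below, with a median of 0.32. For 12 the interval lay above 1 (16.6% of all genes) and for 1 below (17.4%). Past the 2-fold rule as higher were 3 (0.811% of all genes). Those 3 were the cornified envelope gene Sprr2a1 at a fold of 3.24 (2.93 to 3.59), the monocyte chemokine Ccl2 at 3.74 (1.87 to 8.14, from 37 and 11 reads) and loricrin, Lor, at 2.35 (1.82 to 3.07). Sprr2a1 has near-identical copies, and whether it shares reads with them was not tested, so its own fold is uncertain. The list holds epidermal differentiation genes as well as proteases and growth factors. The collagenase gene Mmp13, named after its value was seen, was at 3.57 CPM in K5.Pp6fl/fl and 1.65 CPM in Pp6fl/fl, a fold of 2.16 (1.39 to 3.42). Cd44, the most abundant of the list, was at 0.914 (0.900 to 0.929). Among 12 Egr1 targets, a list that shares Egr2, Nab1 and Nab2 with those above, 8 log2 ratios were positive and 4 negative. Of the 12, 5 intervals exceeded 1 and 3 were below it, beside 16.6% and 17.4% of all genes, and the median was 0.19. Tnf, the inflammatory cytokine, alone passed the rule, at 2.94 (2.19 to 4.01) from 164 and 62 reads. Heat shock genes were listed because stress in culture can move early genes. Of 9, 4 intervals lay above 1 and 3 below, beside 16.6% and 17.4% of all genes. The median was 0.06, with Hspb1 at 0.743 (0.737 to 0.749) and Hsp90aa1 at 1.15 (1.13 to 1.17).

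**Figure D5:**
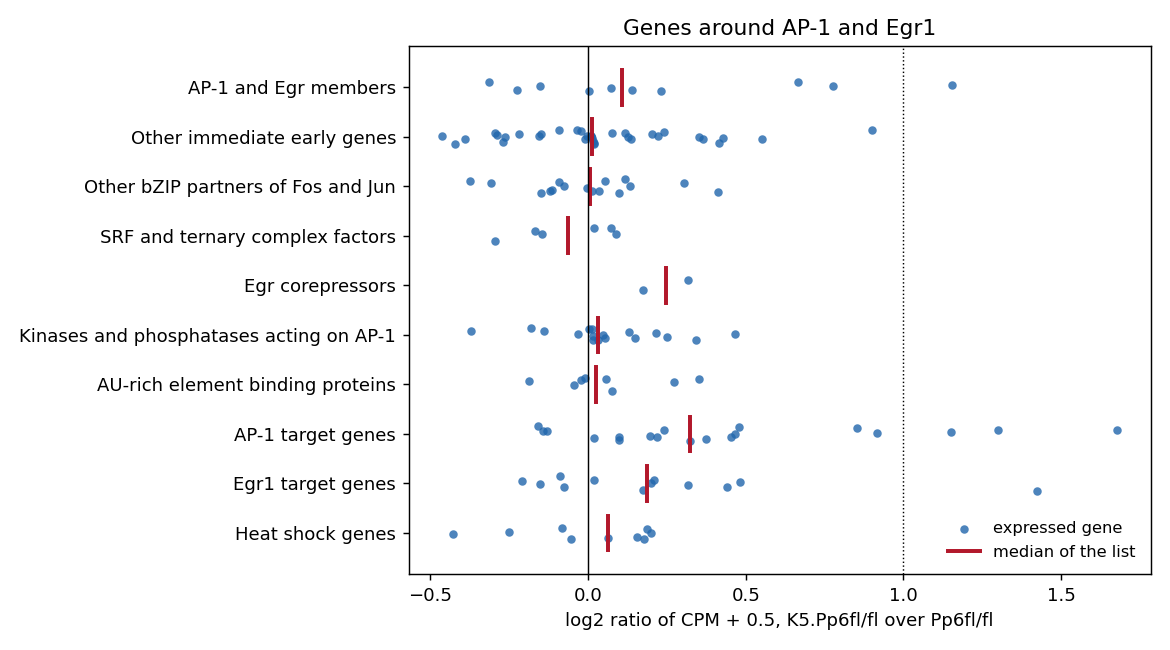
Log2 of K5.Pp6fl/fl over Pp6fl/fl, each as CPM + 0.5, for the genes at 1 CPM or more in each list, 1 point per gene, with the median of each list in red; the dotted line marks 2-fold. The median of the AP-1 targets is 0.32, that of the 10 members 0.11 and that of the other immediate early genes 0.01.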

How the data were processed

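Polyadenylated RNA of cultured tail keratinocytes was sequenced in 1 library per genotype; per the labels' protocols the TruSeq kit used does not mark strand. The submitters' processing notes name RSEM, edgeR and the build mm8, without versions or roles. Not given in the sources used here: aligner, annotation release and filters. The authors deposited 1 table that gives, for each library, estimated counts and FPKM, and for the comparison a log2 fold change with its p-value and FDR. The deposited estimated counts are multiplied by 1 constant per library, as the values show: divided by a step of 1.05737 (K5.Pp6fl/fl) or 0.94574 (Pp6fl/fl), 97.3% of values below 100 came out whole in each column, to within 0.01. The counts used here are those estimated reads, rounded to whole numbers. The authors' FPKM gives folds that differ from those of the counts for some genes, Ppp6c among them. The p-values of the authors rest on 1 library per genotype.

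CPM was computed on library sizes scaled by TMM (edgeR 4.0.16 in R 4.3.3; factors 1.00120 for K5.Pp6fl/fl and 0.99880 for Pp6fl/fl), and folds with exact conditional binomial (Clopper-Pearson) intervals at 95% (scipy 1.17.1). A ratio of 2 folds has a conditional exact interval on the 4 read counts. PCR copies cannot be told from molecules here, so intervals cover counting error only. Gene symbols were found for 47219 of the 47719 identifiers, and 4 older symbols of the lists were matched through RefSeq synonyms. The build of the files differs from GRCm38, so coordinates are given for printed sequences only. The 10 genes, the lists and the rule for naming genes were chosen with earlier results of these data known. The rule names the 10 genes, the other Egr genes, Ppp6c, the nearest genes in level to the highest and lowest member, and per list up to 4 genes past the 2-fold rule or else the 2 most abundant, with the 3 most abundant for marker lists of other cell types. 1 gene that the rule takes is not reported here. Alternatives were pseudocounts of 0.1 and 2 CPM, DESeq2 1.42.0 size factors, library totals, the deposited scaled counts, FPKM, other floors, a 1.5-fold threshold and 99% intervals.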

Additional observations from a re-analysis of the deposited data

How the results depend on the processing

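Under each scaling, pseudocount, floor and measure tried, Egr1 passed the 2-fold rule and no other member did, and its log2 ratio ran from 1.04 to 1.17 over them. With a 1.5-fold threshold 3 members passed as higher and 0 as lower, beside 3.47% and 1.26% of all genes. Over the scalings, pseudocounts and measures, Ier3 ran from 0.77 to 0.79, Fos from 0.56 to 0.70, Junb from 0.23 to 0.25, Jun from -0.22 to -0.21 and Jund from -0.15 to -0.14. Fosb stayed below 0 throughout. With FPKM, Atf3 was at -0.01 and Fosl2 at 0.01, the 2 member ratios of 60 recomputed that moved by more than their counting interval. The all-gene count past the 2-fold rule, 100 higher and 24 lower, was 173 and 57 with a pseudocount of 0.1 CPM, 34 and 5 with 2 CPM, 49 and 4 with a floor of 5 CPM, 232 and 140 by FPKM and 428 and 155 at 1.5-fold; the cause was not tested for FPKM, and the others follow from the changed threshold, floor or pseudocount. Of the AP-1 targets 5 passed with a pseudocount of 0.1 CPM and 1 with 2 CPM. No paired analysis was possible because each genotype has 1 library. By CPM in place of FPKM, 9 of 11 family shares in K5.Pp6fl/fl moved. Depth limits Egr4 (0 and 1 reads), Egr3 (71 and 39), Fosb (51 and 73), Fos (162 and 110) and Egr2 (160 and 154) most.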
